A study of Mus musculus with 12 samples.

Results

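Timd4, Lyve1, Folr2, Cd163 and Mrc1 are genes whose proteins are used to recognise long-lived macrophages that reside in a tissue. These 5 genes were matched by mouse symbol to the 56953 Ensembl genes of the deposited tables, and all 5 were found. They were compared in 12 libraries of bone marrow cells, 3 for each of 4 groups, from female C57BL/6J mice that were 8 weeks old. The first group was eYFP+ macrophages, and the second was eYFP- macrophages. The others were Ly6Chi monocytes and Ly6Clo monocytes. Per the study's methods, the mice for the eYFP split carried Rank cre/+;R26.eYFP fl/+, in which Cre recombinase from the Rank locus switches on the reporter eYFP in macrophages that arise in the embryo. Whether the monocytes came from the same mice is not given in the sources used here. The reporter marks a cell that has recombined, so an eYFP- macrophage is a cell without the mark. Macrophages were sorted for F4/80, VCAM1 and CD206, and CD206 is the protein made from Mrc1, so a difference in Mrc1 between macrophages and monocytes is not independent of the sort. The labels do not say whether replicates came from separate mice, so p-values measure the spread between these libraries.

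Resident macrophages of many tissues settle before birth and then renew themselves locally, whereas other macrophages are replaced from blood monocytes. In the bone marrow, macrophages engulf the nuclei of maturing erythroblasts, senescent erythrocytes and apoptotic cells, and recycle their iron. The 5 proteins act at the cell surface. TIM-4, from Timd4, binds phosphatidylserine exposed on dying cells, LYVE-1 and FOLR2 bind hyaluronan and folate, CD163 takes up haemoglobin bound to haptoglobin, and CD206 binds glycoproteins with terminal mannose.

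The promoters of 4 of the 5 genes were in the RefSeq promoter table (build GRCm38.p6), which gave 5 windows because Folr2 has a pair of starts. The 250 bases before the start are printed for Timd4, Folr2 and Mrc1, whose windows hold a searched motif. Cd163 was higher in macrophages as well, but its window holds none and is not printed. Each sequence is written 5′ to 3′ on the strand of the gene. Capitals mark matches to TGCTGA, the core of the MAF recognition element, or to GAGGAA, the core of the PU.1 site, on either strand.
Timd4, chr11:46810549-46810798, plus strand: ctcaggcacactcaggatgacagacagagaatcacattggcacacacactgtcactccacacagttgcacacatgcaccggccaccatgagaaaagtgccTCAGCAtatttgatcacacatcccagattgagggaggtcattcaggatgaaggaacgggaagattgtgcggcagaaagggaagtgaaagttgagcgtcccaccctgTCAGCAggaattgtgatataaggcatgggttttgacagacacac
Folr2, chr7:101857191-101857440, minus strand: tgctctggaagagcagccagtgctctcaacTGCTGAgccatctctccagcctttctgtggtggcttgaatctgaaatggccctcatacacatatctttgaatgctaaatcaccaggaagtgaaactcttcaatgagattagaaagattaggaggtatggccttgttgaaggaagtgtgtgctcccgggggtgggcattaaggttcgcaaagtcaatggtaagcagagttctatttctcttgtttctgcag
Folr2, chr7:101845332-101845581, minus strand: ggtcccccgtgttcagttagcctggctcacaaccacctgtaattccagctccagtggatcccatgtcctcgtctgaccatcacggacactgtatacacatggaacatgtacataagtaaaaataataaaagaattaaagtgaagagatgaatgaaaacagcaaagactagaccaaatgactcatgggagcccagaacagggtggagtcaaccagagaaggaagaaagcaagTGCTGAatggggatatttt
Mrc1, chr2:14229164-14229413, plus strand: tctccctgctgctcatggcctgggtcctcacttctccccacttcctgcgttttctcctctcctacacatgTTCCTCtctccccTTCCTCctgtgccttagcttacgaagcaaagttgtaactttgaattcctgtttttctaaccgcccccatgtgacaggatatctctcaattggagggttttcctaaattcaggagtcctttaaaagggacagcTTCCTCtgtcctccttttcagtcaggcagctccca

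In the Timd4 window, TGCTGA was found on the opposite strand, 150 to 145 and 44 to 39 bases before the start. In Folr2 it was found on the gene's strand, 220 to 215 bases before the upstream start and 19 to 14 bases before the downstream start. The Mrc1 window held GAGGAA on the opposite strand, 180 to 175, 167 to 162 and 35 to 30 bases before the start. No 2 matches overlapped. The Cd163 window held neither motif, and none of the 5 windows held the E box CACGTG or the TATA box TATAAA. Of 32851 promoters of the same length, 16.1% held TGCTGA, 23.3% GAGGAA, 6.02% CACGTG and 12.4% TATAAA on either strand, so each match is a description of the letters.

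Depth ran from 26390927 to 48618187 counts per library. The labelled cell types were compared by marker genes. Vcam1 and Adgre1, both on the macrophage identity list, encode proteins used in the macrophage sort. Their differences from monocytes are therefore not independent of that sort. Of 8 macrophage identity genes, 6 were higher in macrophages than in monocytes (DESeq2 adjusted p under 0.05), among them Vcam1 with a log2 fold change of 8.34 ± 0.28 (SE, n = 6 against 6), and Csf1r, the receptor for the macrophage growth factor, was at -0.33 without passing the test. Ptprc, which encodes CD45, was lower in macrophages (-1.33). Fcgr1 was higher as well (1.98). Ly6Clo replicate 2 stood apart with 16434 genes detected, against 21330 to 27634 in the other libraries, and the members' values that rest on it are given with and without it. Csf1r was at 16344 normalized counts in that library, against 170934 and 168226 in the other Ly6Clo libraries.

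Timd4, Folr2, Cd163 and Mrc1 were macrophage genes in these samples, and Lyve1 was close to absent from every group. Per transcript length, Mrc1 and Cd163 were the most abundant, Timd4 was lower and Folr2 lower again. In eYFP+ macrophages the level in TPM, which is scaled to transcript length and library, was 1316 ± 463 (SD, n = 3) for Mrc1, 1069 ± 351 for Cd163, 145 ± 31.2 for Timd4, 31.6 ± 5.85 for Folr2 and 0.129 ± 0.128 for Lyve1. In eYFP- macrophages it was 715 ± 491 for Mrc1, 677 ± 352 for Cd163, 121 ± 22.3 for Timd4, 12.4 ± 2.04 for Folr2 and 0.0149 ± 0.0149 for Lyve1. The levels of Mrc1 and Cd163 lay within each other's spread in both groups. The values below are normalized counts, which are read counts divided by the library's size factor and compare a gene with itself across libraries.

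**Figure D1:**
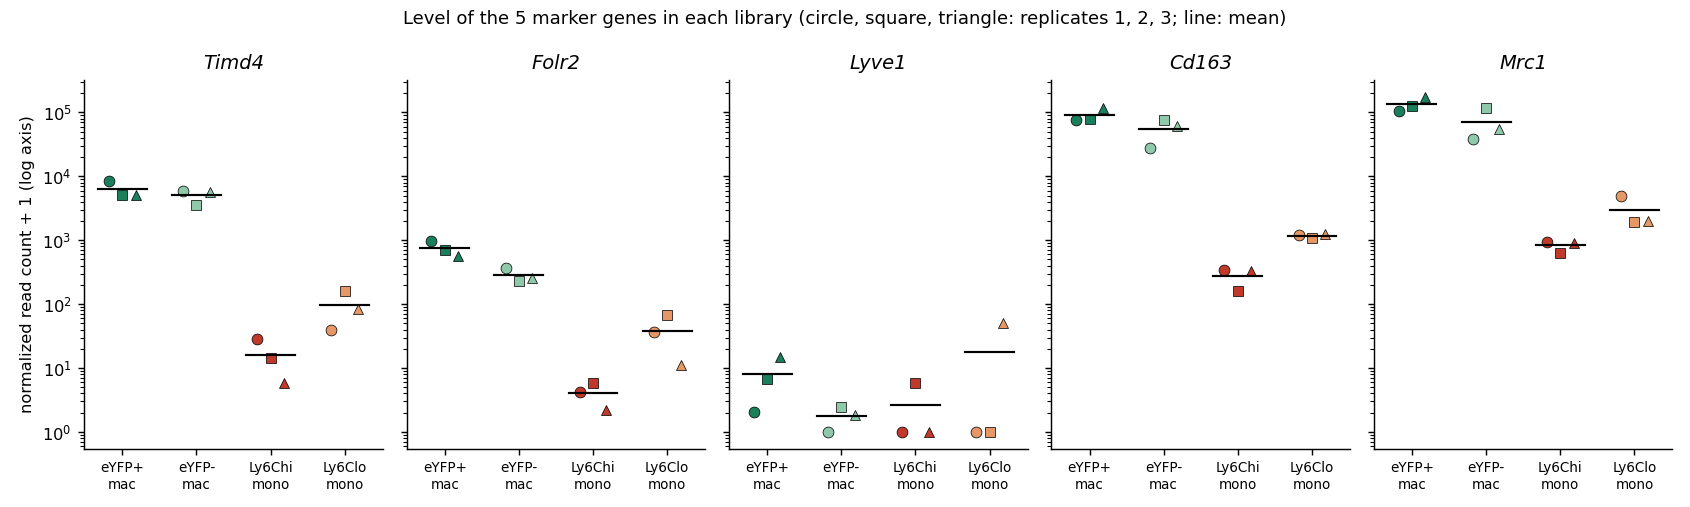
Normalized read count plus 1 (log axis) of the 5 genes in each library, with the group mean as a line and replicates 1, 2 and 3 as circle, square and triangle. Timd4, Folr2, Cd163 and Mrc1 lie far higher in both macrophage groups than in monocytes, and Lyve1 is under 50 in every library.

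Timd4 was at 8499, 5175 and 5054 normalized counts in eYFP+ replicates 1, 2 and 3 and at 5984, 3574 and 5664 in eYFP- macrophages. The ranges of the macrophage groups overlapped. It was at 27.6, 13.4 and 4.86 in Ly6Chi and at 38.2, 162 and 83.3 in Ly6Clo monocytes, where replicate 2 was highest. All Ly6Clo libraries lay above the Ly6Chi libraries and far below both macrophage groups.

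Folr2 was at 986, 705 and 574 in eYFP+ macrophages and at 371, 231 and 260 in eYFP- macrophages, so the lowest eYFP+ library stood above the highest eYFP- library. It was at 3.18, 4.86 and 1.21 in Ly6Chi monocytes and at 35.6, 67.0 and 10.2 in Ly6Clo monocytes. The groups did not overlap anywhere in this order, eYFP+ above eYFP- macrophages, then Ly6Clo, then Ly6Chi monocytes.

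Cd163 was at 77449, 78914 and 118439 in eYFP+ macrophages and at 28078, 76904 and 62165 in eYFP- macrophages. The groups touched without overlapping, and on the TPM scale they overlapped (from 806 to 1468 against 302 to 1001). It was at 338, 162 and 327 in Ly6Chi and at 1219, 1066 and 1238 in Ly6Clo monocytes.

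Mrc1 was at 105872, 124226 and 177585 in eYFP+ macrophages and at 38647, 118137 and 54716 in eYFP- macrophages, of which replicate 2 lay within the eYFP+ range. It was at 936, 636 and 914 in Ly6Chi and at 4918, 1929 and 2021 in Ly6Clo monocytes. Ly6Clo replicate 1 was the highest monocyte library.

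Lyve1 had 1, 6 and 19 raw counts in eYFP+ macrophages, 0, 2 and 1 in eYFP- macrophages, 0, 4 and 0 in Ly6Chi monocytes and 0, 0 and 49 in Ly6Clo monocytes. It was seen in 7 of 12 libraries, and a count of 0 allows up to 3 at this depth (counting error only, and reads amplified without molecular identifiers are not independent molecules). The highest library, Ly6Clo replicate 3, reached 0.826 TPM. Lyve1 is also known from lymphatic and sinusoidal endothelium. Endothelial genes were mixed in that library. Of 13 such genes, Cdh5 and Prox1 were at 0 normalized counts, Emcn was at 1.02 and Flt4 at 2.03, but Pecam1 (7266) and Vwf (664) were higher than in any other library, and the summed level of the list, 108.99 TPM, was the highest of the monocyte libraries. Most of that sum was Pecam1, which leukocytes also express, and without Stab2 and Pecam1 the Ly6Clo libraries ran from 2.93 to 7.26 TPM, with replicate 1 highest. Their part in the Lyve1 counts was not tested. Because its counts lie around the floor, no fold change is given for Lyve1.

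Origin was addressed by comparing eYFP+ with eYFP- macrophages. All 5 members were higher on average in eYFP+ macrophages, Lyve1 near the floor of detection, and none passed the test over all genes. By DESeq2, 0 of 5 members had an adjusted p under 0.05, against 2.04% of 21567 genes tested in either direction. At an unadjusted p under 0.05 there was 1 member, Folr2, and edgeR's quasi-likelihood test also called 0 of the 4 it kept (0.334% of its 19189 genes), with Folr2 again the member at an unadjusted p under 0.05. Ranges did not overlap for Folr2 and Cd163, and 6.74% of tested genes lay without overlap in the same direction.

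The fitted log2 fold change of Folr2 was 1.39 ± 0.56 (SE, n = 3 against 3), with a 95% interval from 0.30 to 2.48. Its unadjusted p in the DESeq2 model was 0.0122, and its adjusted p was 0.273 by DESeq2 and 0.517 by edgeR. As a ratio of means this was 2.63-fold. In a fit on the 6 macrophage libraries alone the estimate was also 1.39, with a DESeq2 adjusted p of 0.00818. That was the only alternative in which any member passed, and in the others, libraries left out in turn included, the adjusted p of Folr2 ran from 0.0639 to 0.753.

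For Mrc1 the log2 fold change was 0.95 ± 0.50, with a 95% interval from -0.03 to 1.93 (DESeq2 adjusted p = 0.609, edgeR 0.766). Without eYFP- replicate 2 it was 1.54 (DESeq2 adjusted p = 0.0560), and without eYFP- replicate 1 it was 0.65. For Cd163 it was 0.72 ± 0.42, from -0.11 to 1.55 (DESeq2 adjusted p = 0.727, edgeR 0.799), and 0.40 without eYFP- replicate 1. Timd4 was at 0.30 ± 0.56, from -0.80 to 1.40 (DESeq2 adjusted p = 0.9997, edgeR 1). A difference of up to about that upper bound in Timd4 is therefore within the error. Lyve1 had a DESeq2 adjusted p of 0.879.

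**Figure D2:**
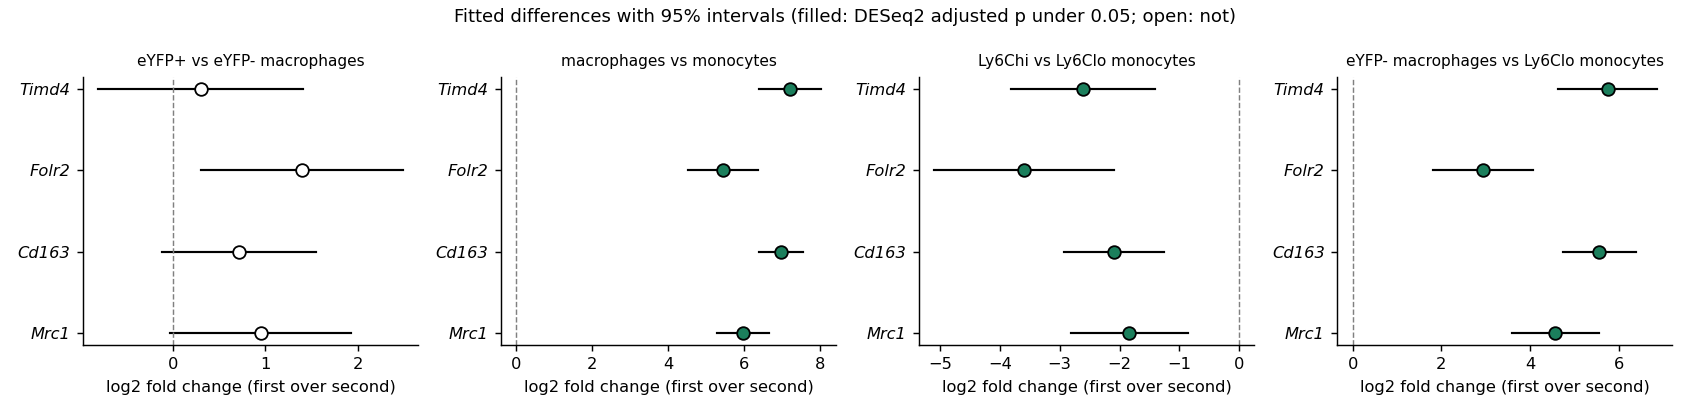
Log2 fold change (points) and 95% interval (lines) of Timd4, Folr2, Cd163 and Mrc1 in 4 comparisons, with filled points for a DESeq2 adjusted p under 0.05. All points are open for eYFP+ against eYFP- macrophages, where the interval of Folr2 runs from 0.30 to 2.48, and all are filled elsewhere.

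Within a group, the members varied as pairs in 4 of 6 macrophage libraries, in which Timd4 and Folr2 lay on one side of their group mean and Cd163 and Mrc1 on the other. In eYFP+ replicate 1, Timd4 lay 0.49 and Folr2 0.42 above their group mean on the log2 scale, while Cd163 was at -0.21 and Mrc1 at -0.33. In eYFP- replicate 1, Timd4 was at 0.27 and Folr2 at 0.40, while Cd163 was at -0.87 and Mrc1 at -0.70. In eYFP- replicate 2 the order turned, with Timd4 at -0.47 and Folr2 at -0.28 and with Cd163 at 0.59 and Mrc1 at 0.91. In eYFP+ replicate 2 all 4 members lay below their means, from -0.06 to -0.23. The pairs did not hold in eYFP- replicate 3, where Timd4 and Cd163 lay above their means (0.19 and 0.28) and Folr2 and Mrc1 below (-0.11 and -0.20).

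The length of the transcript moved with this pattern in part. Timd4 and Folr2 have transcripts of 2173 and 1204 bases, and Cd163 and Mrc1 of 4443 and 5374 bases. Among 2431 genes over 5000 bases long, the median deviation from the group mean was -0.27 in eYFP- replicate 1 and 0.37 in replicate 2. Among 2610 genes up to 1500 bases long it was 0.16 and -0.19. In the classes that hold Cd163 (3000 to 5000 bases) and Timd4 (1500 to 3000 bases) the medians were -0.10 and 0.06, and 0.12 and -0.12. A median over a class does not give the spread of its single genes. The part of length in the pattern was not tested, and the correction below concerns differences between the groups. With a correction for GC content and length, the log2 fold change of eYFP+ over eYFP- macrophages was 1.53 for Folr2, 0.81 for Mrc1 and 0.65 for Cd163, and none passed the test.

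**Figure D3:**
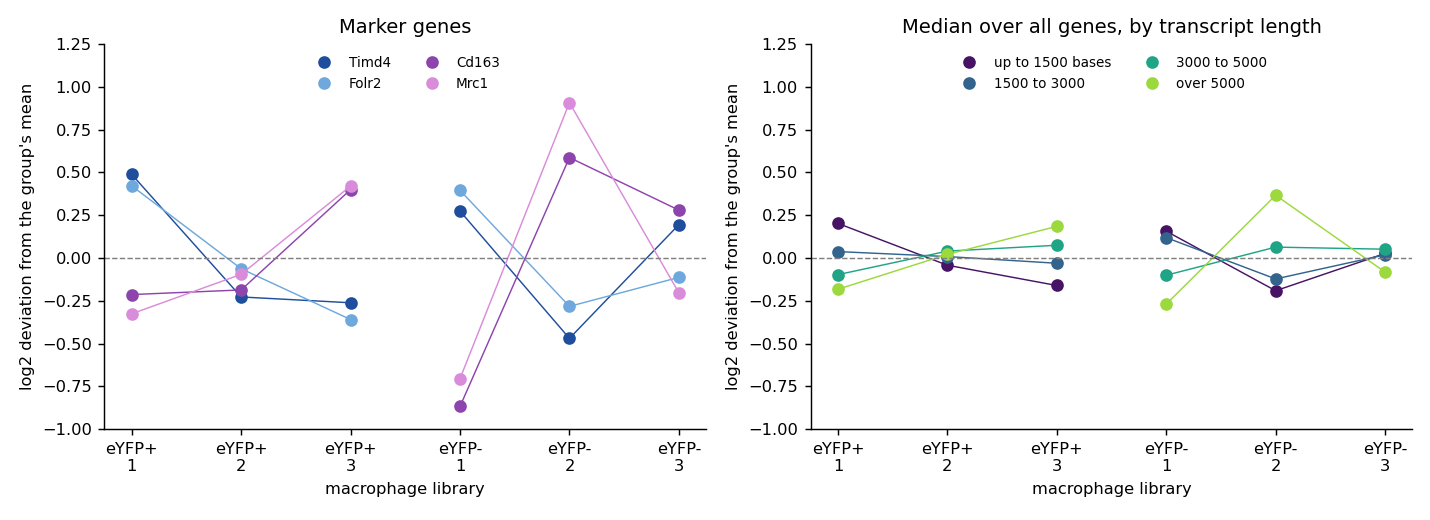
Deviation of each macrophage library from its group's mean on the log2 scale, for 4 members (left) and as the median of all genes in 4 classes of transcript length in bases (right). Cd163 and Mrc1 are low in eYFP- replicate 1 and high in replicate 2, as are genes over 5000 bases long, and Timd4 and Folr2 take the opposite course.

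Ratios of raw counts within a library do not depend on its size factor. The ratio of Folr2 to Timd4 was 0.116, 0.136 and 0.113 in eYFP+ macrophages and 0.0619, 0.0647 and 0.0460 in eYFP- macrophages, without overlap. An exact permutation test over libraries, with both sides counted, returned p = 0.1. No smaller p is possible with 3 against 3, and adjustment over the 6 ratios computed gave 0.6. The ratio of Mrc1 to Cd163 was 1.37, 1.57 and 1.499 in eYFP+ macrophages and 1.38, 1.54 and 0.880 in eYFP- macrophages. It changed 1.79-fold from lowest to highest, and the ratio of Timd4 to Mrc1 changed 5.44-fold.

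Markers of other cell types moved with the eYFP groups. Of 8 stem and progenitor cell genes, 4 were lower in eYFP+ macrophages, led by Cd34 with a log2 fold change of -4.58 and Flt3 with -4.87, and the summed level of the list was 5.41 to 12.0 TPM against 51.6 to 113 TPM in eYFP- macrophages. Of 11 neutrophil and granulocyte precursor genes, 5 were lower, among them Prtn3 at -3.84 and Mpo at -4.49 (123 to 213 against 263 to 2706 TPM). Of 11 erythroid genes, 2 were lower, Klf1 at -2.63 and Slc4a1 at -1.72 (9012 to 14507 against 22446 to 35300 TPM). Of 13 endothelial genes, 2 were lower, Egfl7 at -3.70 and Esam at -2.81 (151 to 184 against 159 to 185 TPM). Most of that sum was Stab2 and Pecam1, and without them, a choice made after their values were seen, the other 11 genes summed to 2.30 to 6.53 TPM in eYFP+ and 23.3 to 45.4 TPM in eYFP- macrophages. Of 9 T and NK cell genes, 1 was lower, Nkg7 at -3.36 (9.39 to 23.9 against 61.6 to 128 TPM). Of 8 dendritic cell genes 2 were lower, Flt3 and Xcr1 (433 to 555 against 391 to 509 TPM), of 6 tested B cell genes 1, Ighm (484 to 721 against 513 to 613 TPM), and of 7 tested mesenchymal stromal genes 0 (37.8 to 64.4 against 73.8 to 116 TPM). No gene of these lists was at 0 in all 6 macrophage libraries. Of 6 tested monocyte identity genes 2 were lower, and of 8 macrophage identity genes 0 were called. These are DESeq2 calls, and edgeR called 1 gene each among the stem cell, neutrophil, endothelial, T and NK cell and monocyte lists and 0 in the others. Their part in the differences of Folr2, Mrc1 and Cd163 was not tested. In such bulk samples, fewer cells of a type and less RNA per cell cannot be told apart.

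Other genes of resident macrophages were compared between the same groups. Over 22 genes of a resident macrophage programme the median log2 fold change of eYFP+ over eYFP- macrophages was 0.38, beside 0.05 for all tested genes. Over the 8 macrophage identity genes above it was 0.48, with all 8 positive, so the rise was not particular to the resident programme. The phosphatidylserine receptor Mertk was at 0.55, Maf at 0.40, Igf1 at 0.53, Cd5l at 0.27 and Vsig4 at 0.06, none of which passed. Of 10 genes of recruited macrophages, 8 had an adjusted p and 4 were lower in eYFP+ macrophages, among them Plac8 (-3.23), S100a6 (-1.64) and Ccr2, the receptor by which monocytes leave the marrow (-1.80). By edgeR 2 were lower. The summed level of these 10 genes was 16.6 to 27.1 TPM in eYFP+ and 65.5 to 248 TPM in eYFP- macrophages. In Ly6Chi monocytes it was 16549 to 16908 TPM. The part of RNA from other cells in these differences was not tested. None of 8 MHC class II macrophage genes passed by either tool, and 0 had an unadjusted p under 0.05. Their median log2 fold change was -0.38, with all 8 negative.

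The members set macrophages apart from monocytes, Timd4 and Cd163 most. By DESeq2, 4 of 5 members were higher in macrophages, against 20.3% of 22385 genes tested, and edgeR called the same 4 (19.8% of its 19189 genes). None of the 4 overlapped between 6 macrophage and 6 monocyte libraries, and 10.7% of tested genes were that far apart in this direction. The folds given here are ratios of mean normalized counts over 6 libraries, while the fitted log2 fold changes weigh the groups equally on the log scale and are larger for genes that differ between monocyte groups. Timd4 was 103-fold higher (log2 fold change 7.21 ± 0.42, DESeq2 adjusted p = 8.82e-65). Cd163 was 102-fold higher (6.97 ± 0.30, DESeq2 adjusted p = 2.2e-115). Mrc1, on whose protein the macrophages were sorted, was 54.5-fold higher (5.97 ± 0.35, DESeq2 adjusted p = 1.07e-61), and Folr2 25.6-fold (5.44 ± 0.47, DESeq2 adjusted p = 6.67e-29). Lyve1 did not pass (DESeq2 adjusted p = 0.637). Without Ly6Clo replicate 2 the log2 fold changes were 7.47 for Timd4, 6.89 for Cd163, 5.80 for Mrc1 and 5.73 for Folr2, with the same calls.

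The partners of TIM-4 moved in both directions. In the TIM family and TIM-4 partner list, 4 of 9 tested genes were higher in macrophages and 2 lower. The receptor Axl, which binds phosphatidylserine through Gas6, was at a log2 fold change of 4.83 and Mertk at 7.23, whereas the relative Havcr2, which encodes TIM-3, was at -0.45 without passing the test. Mfge8, a bridge between dying cells and integrins, was lower (-2.29), as was the integrin gene Itgb3 (-3.43). In eYFP+ macrophages Mfge8 was also lower than in eYFP- macrophages (-2.47, DESeq2 adjusted p = 0.000292, edgeR 0.0698).

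Among genes that handle hyaluronan, the scavenger receptor Stab2 was abundant in macrophages and Lyve1 was not. Of 10 tested hyaluronan genes, 4 were higher in macrophages and 2 lower. Stab2 rose by 7.64 ± 0.32 and reached 119 ± 11.8 TPM in eYFP+ and 84.2 ± 21.3 TPM in eYFP- macrophages, against 0.271 ± 0.0988 in Ly6Chi and 0.798 ± 0.489 TPM in Ly6Clo monocytes. Stab2 is also a gene of sinusoidal endothelium. Stab2 was at 17924 to 19716 normalized counts in eYFP+ and 10647 to 14833 in eYFP- macrophages, while Cdh5 was at 9.54 to 18.5 and 18.4 to 75.8, Plvap at 0 to 124 and 186 to 1014, and Pecam1, which leukocytes also express, at 2117 to 3760 and 2695 to 3809. The part of endothelial RNA in Stab2 was not tested. The hyaluronidases Hyal1 (2.61) and Hyal2 (2.51) were also higher, and Cd44, the hyaluronan receptor of most leukocytes, was lower (-1.21), as was Layn (-2.88). Between eYFP+ and eYFP- macrophages, Hmmr, a gene of dividing cells, was the only hyaluronan gene called (-1.89, DESeq2 adjusted p = 0.00675, edgeR 0.122).

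**Figure D4:**
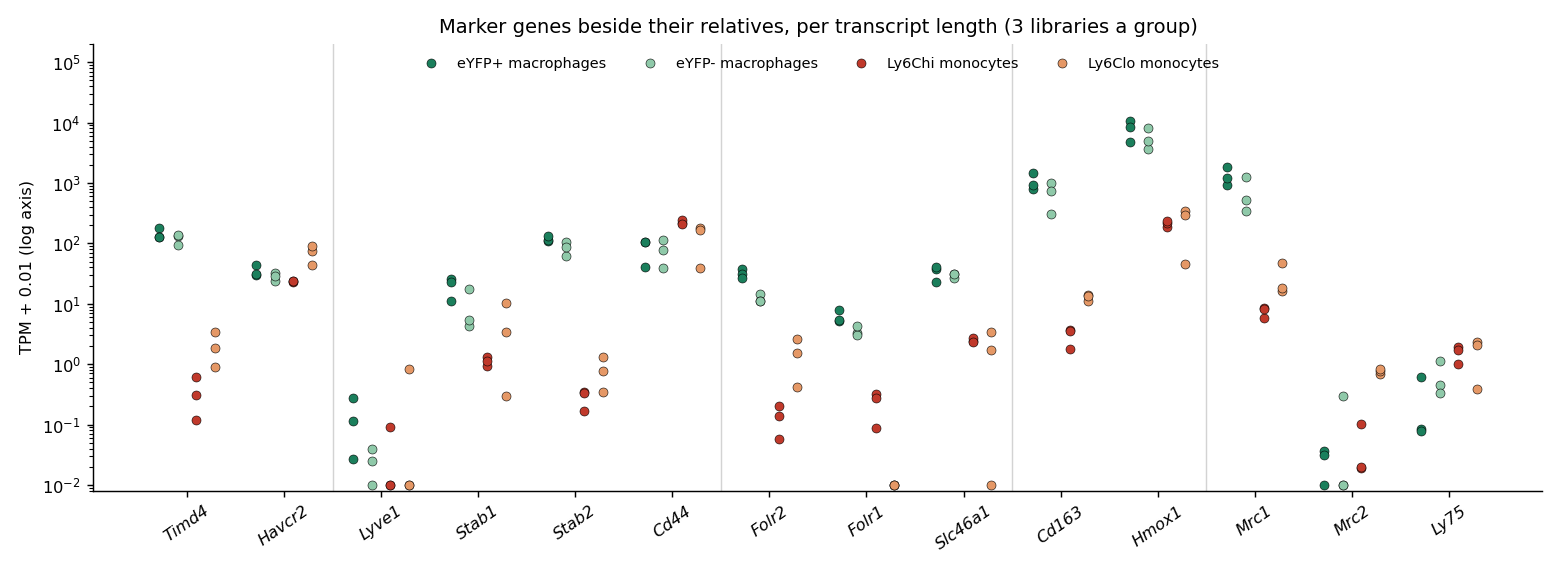
Level per transcript length (TPM + 0.01, log axis) of the 5 members and their relatives in the 4 groups, 1 point per library. Stab2 is at 61.8 to 132 TPM in macrophage libraries, in which Lyve1 is under 0.3, and Folr1 is below Folr2 in every macrophage library.

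Among folate genes, 7 of 9 tested were higher in macrophages and 1 lower. Folr1, the other receptor for folate, was at 6.17 ± 1.51 TPM in eYFP+ and 3.49 ± 0.661 TPM in eYFP- macrophages, and did not pass between them (0.84, DESeq2 adjusted p = 0.659). It was listed at 0 in all Ly6Clo libraries. The folate carriers Slc46a1 (3.85) and Slc19a1 (1.81) were higher in macrophages. Folr1 and Folr2 are near relatives, so reads that fit both cannot be placed with certainty. No folate gene was called between eYFP+ and eYFP- macrophages.

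Of 12 genes for haemoglobin and haem clearance, 10 were higher in macrophages and 1 was lower. The iron exporter Slc40a1 rose by 8.09, Blvrb by 3.67 and Hmox1, which opens the haem ring, by 4.81. Hp, which encodes haptoglobin, was lower in macrophages than in monocytes (-7.44). It was the gene of this list called between eYFP+ and eYFP- macrophages (-2.92, DESeq2 adjusted p = 6.74e-05, edgeR 0.0589). Hp was at 12.4, 126 and 52.6 normalized counts in eYFP+ and at 501, 547 and 400.0 in eYFP- macrophages. Hp is also expressed by maturing granulocytes. Of the 11 neutrophil and granulocyte precursor genes above, Mpo, Elane, Prtn3 and Ctsg were higher in each eYFP- library than in any eYFP+ library, as Hp was. The others were not. Among macrophage libraries, Ngp, Camp, Ltf, S100a8 and S100a9 were highest in eYFP- replicate 2, and Retnlg and Mmp8 in eYFP+ replicate 1. The part of granulocyte RNA in Hp was not tested.

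The list for Mrc1 holds members of its family and other lectins. Of 9 tested genes of the mannose receptor family and of glycan clearance, 6 were lower in macrophages than in monocytes and 1 was higher, Clec4a2 (1.41). Of the family members Mrc2, Ly75 and Pla2r1, only Ly75 was lower by the test (-2.15). Mrc2, which did not pass, was at 0 to 0.0260 TPM in eYFP+ and 0 to 0.289 TPM in eYFP- macrophages, at 0.00882 to 0.0909 TPM in Ly6Chi and at 0.669 to 0.817 TPM in Ly6Clo monocytes. The lectin genes Cd209a (-8.36), Mgl2 (-3.50) and Cd209b (-1.87) were lower in macrophages, although Cd209b in Ly6Chi monocytes (0.777 to 1.004 TPM) lay within the range of eYFP+ macrophages (0.640 to 1.24 TPM). Between eYFP+ and eYFP- macrophages, Mgl2 was higher (2.14, DESeq2 adjusted p = 0.0207, edgeR 0.220) and Cd209a lower (-3.33, DESeq2 adjusted p = 0.00349, edgeR 0.163). Mgl2 was at 97.8, 443 and 102 normalized counts in eYFP+ and at 27.4, 66.2 and 51.9 in eYFP- macrophages.

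Of 16 tested regulators of resident macrophages, 6 were higher than in monocytes and 7 lower. Spic, the factor of iron-recycling macrophages, rose by 6.86, Nr1h3 by 4.46 and Maf, a factor that binds the MAF element, by 4.04. Id3 (-1.88) and Spi1, which encodes PU.1 (-1.18), were lower. In the resident programme 18 of 22 genes were higher in macrophages, with a median of 3.96 beside 0.08 for all tested genes, among them Cd5l (8.18) and Slco2b1 (8.67), and the lower ones included F13a1 (-6.67), Clec10a (-0.71) and Colec12 (-1.90). Between eYFP+ and eYFP- macrophages the only regulator called was Id3 (-1.58, DESeq2 adjusted p = 0.0298, edgeR 0.198).

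Monocyte subsets differed in the members. By DESeq2, 4 of 5 were lower in Ly6Chi than in Ly6Clo monocytes, against 4.97% of 21567 genes tested, and edgeR called 3 (2.51% of its genes). None of the 4 overlapped, where 11.9% of tested genes lay apart in this direction. The log2 fold change of Ly6Chi over Ly6Clo was -3.59 ± 0.77 for Folr2 (DESeq2 adjusted p = 0.000128, edgeR 0.0142), -2.61 ± 0.61 for Timd4 (DESeq2 adjusted p = 0.000724, edgeR 0.0356) and -2.09 ± 0.43 for Cd163 (DESeq2 adjusted p = 5.58e-05, edgeR 0.0130). For Mrc1 it was -1.83 ± 0.50 (DESeq2 adjusted p = 0.00550), and edgeR did not call it (0.0592). The call of Timd4 was lost with limma on log2(TPM + 1) (adjusted p = 0.0510) and that of Folr2 as well (adjusted p = 0.0696). Without Ly6Clo replicate 1, Mrc1 was at -1.25 (DESeq2 adjusted p = 0.0779). Without Ly6Clo replicate 2, all 4 members kept their call, with Timd4 at -1.97, Folr2 at -2.91, Cd163 at -2.16 and Mrc1 at -2.07. Summed over 3 libraries, Folr2 rested on 8 and 102 reads and Timd4 on 41 and 248.

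Macrophage genes that were not members were also higher in Ly6Clo monocytes. As a percent of the macrophage mean, Timd4 was at 0.675, 2.87 and 1.47 in Ly6Clo replicates 1, 2 and 3, Folr2 at 6.84, 12.9 and 1.95, Cd163 at 1.65, 1.45 and 1.68, and Mrc1 at 4.77, 1.87 and 1.96. In the same libraries Vcam1 was at 0.631, 0.290 and 0.888 percent, Cd5l at 0.495, 0.494 and 0.894, and Slc40a1 at 0.607, 0.590 and 0.738. Every one of the 4 members lay above these 3 genes in each Ly6Clo library. Spic, at 1.83, 4.01 and 1.87 percent, lay above Timd4 and Cd163, and Adgre1, which monocytes also express, was at 39.5, 33.1 and 43.8 percent, far above every member. The part of macrophage RNA in the Ly6Clo values of the members was not tested.

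**Figure D5:**
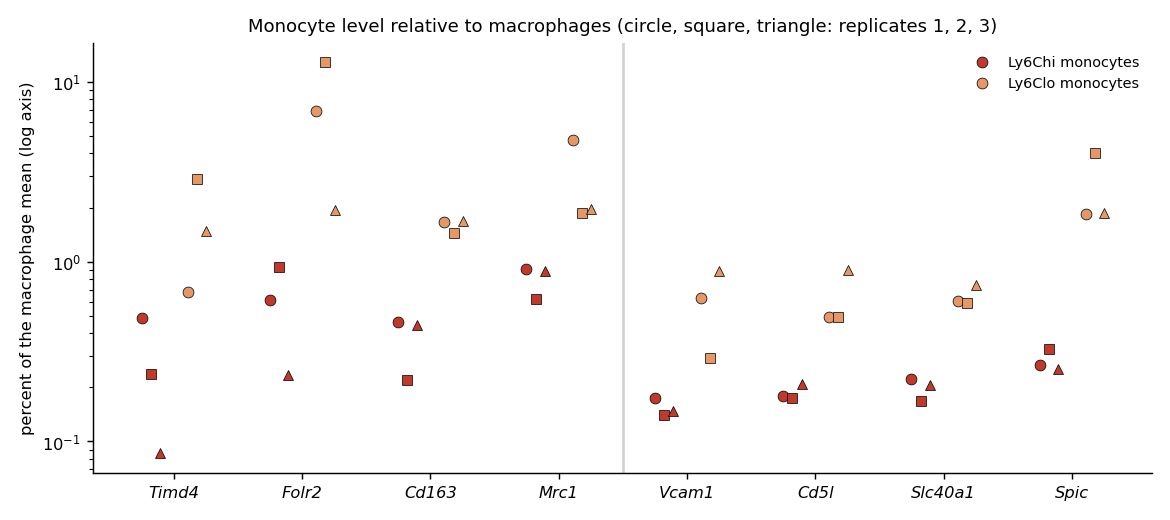
Level in each monocyte library as a percent of the mean of 6 macrophage libraries (log axis) for 4 members and for the macrophage genes Vcam1, Cd5l, Slc40a1 and Spic. Ly6Clo libraries lie above Ly6Chi libraries for each gene, and Folr2 reaches 12.9 percent in Ly6Clo replicate 2.

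Between eYFP- macrophages and Ly6Clo monocytes, 4 of 5 members were higher in macrophages by DESeq2 and by edgeR, against 15.4% of 21567 genes and 13% of 19189. Timd4 was 53.7-fold higher (5.75 ± 0.57), Cd163 47.4-fold (5.57 ± 0.43), Mrc1 23.8-fold (4.58 ± 0.50) and Folr2 7.64-fold (2.95 ± 0.57, DESeq2 adjusted p = 3.93e-06). Without Ly6Clo replicate 2 the log2 fold changes were 6.34 for Timd4, 5.45 for Cd163, 4.29 for Mrc1 and 3.58 for Folr2. The groups did not overlap for these 4, and 21.5% of tested genes lay that way. These libraries also enter the comparisons above, so the values are not independent of them. Of 12 genes of haemoglobin and haem clearance, 8 were higher and 1 lower, and of 8 MHC class II macrophage genes 4 were lower.

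Genes with the most similar profile were sought among 10923 named genes with a mean of at least 50 normalized counts, by the root mean square difference of centred log2 profiles over 12 libraries. The profile of Cd163 was nearest to Igf1 (0.541), Mrc1 (0.638) and Stab2 (0.650), and that of Mrc1 to Myo10 (0.481), Arap2 (0.573), Mras (0.586) and Cd163 (0.638). Timd4 was nearest to Mpzl1 (0.543), Ubd (0.611) and Spic (0.617), and Folr2 to Rgl1 (0.656), Fmnl2 (0.683) and Cd81 (0.718). Leaving out Ly6Clo replicate 2 kept 4 of the 5 nearest genes of Mrc1, 2 of Cd163, 2 of Folr2 and 1 of Timd4. Adding 10 in place of 1 before the log kept 4 of Mrc1, 4 of Cd163, 1 of Folr2 and 4 of Timd4. Over the 6 macrophage libraries alone, Folr2 was nearest to Cd63 (0.192), its pseudogene Cd63-ps (0.197), which may share reads with it, and Trem2 (0.209), and Mrc1 to Prkaa1 (0.0533). Cd163 and Mrc1 were 0.285 apart there, Timd4 and Folr2 0.573, and Timd4 and Mrc1 0.920. The profiles share library and depth effects, so these are descriptions.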

How the data were processed

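RNA of sorted bone marrow cells was amplified as full-length cDNA and sequenced in pairs, without molecular identifiers. The methods of the study state that the authors trimmed reads with Trimmomatic and Cutadapt, aligned them with segemehl to GRCm39 and assigned pairs to Ensembl genes with featureCounts, and bcl2fastq 2.20.0.422 is in their processing notes. The authors deposited counts, which are whole read pairs per gene assigned without ambiguity, and whether strand was used is not given in the sources used here. The authors also deposited TPM, scaled by gene length and library. A deposited table of variance-stabilised log2 values was not used in a test. Ensembl identifiers were paired with GENCODE M21 symbols for 91.4% of 56953 genes.

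Groups came from the sample titles. The main test was the Wald test of DESeq2 1.42.0 (R 4.3.3), with 1 fit over 12 libraries, no block, independent filtering, and a Benjamini-Hochberg adjusted p under 0.05. The settings of the test follow the tool named in the study's methods. The comparisons were 4, and macrophages and monocytes were each the mean of their groups. edgeR 4.0.16 (quasi-likelihood, TMM, filterByExpr) and limma 3.58.1 on log2(TPM + 1) or log2(TPM + 0.1) were alternatives, as were other scalings, filters, a correction for transcript GC content and length (known for 96.4% of tested genes, from the longest GENCODE transcript), fits on the libraries compared, and leaving out each library. On simulated counts for the macrophage comparison, DESeq2 made more false calls than its threshold allows and edgeR made few, so DESeq2 calls there that edgeR does not share are less certain. The members and the 20 gene lists were chosen with earlier results of these data known. All members are named; other genes are those of the lists called between eYFP+ and eYFP- macrophages, or leading by adjusted p against monocytes with a mean of at least 50 normalized counts, and relatives of the members. Not every gene chosen in this way is given. A result for 1 gene of the resident programme is not reported here.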

Additional observations from a re-analysis of the deposited data

How the results depend on the processing

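Of the members, Timd4, Folr2, Cd163 and Mrc1 kept their direction and their call in macrophages against monocytes and in eYFP- macrophages against Ly6Clo monocytes under every alternative run. Between eYFP+ and eYFP- macrophages their direction held throughout, and a call was gained in 1 fit, for Folr2 with a log2 fold change of 1.39 on the 6 macrophage libraries, where the dispersion no longer includes monocytes. Leaving out a library moved Folr2 from 1.15 to 1.62, Mrc1 from 0.65 to 1.54, Cd163 from 0.40 to 1.02 and Timd4 from 0.01 to 0.44. In Ly6Chi against Ly6Clo monocytes calls were lost for Mrc1 with edgeR (-1.80), with limma on log2(TPM + 1) (-1.59, also without a filter) and on log2(TPM + 0.1) (-1.70), and in 2 of 6 fits with a library left out, without Ly6Chi replicate 2 (-1.68) and without Ly6Clo replicate 1 (-1.25), where the 6 fits ran from -2.07 to -1.25. They were lost for Timd4 (-1.12) and Folr2 (-1.05) with limma on log2(TPM + 1), with or without a filter. Lyve1 did not pass in any fit that gave it an adjusted p.

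Each setting gives its own total, and overlaps were not counted. DESeq2 called 439 genes between eYFP+ and eYFP- macrophages (33 higher, 406 lower), edgeR 64, limma 175 with log2(TPM + 0.1) and 220 without a filter, the fit on 6 libraries 686, and fits without a library 227 (without eYFP- replicate 3) to 529, of which 182 were higher and 347 lower without eYFP- replicate 2. DESeq2 called 1860 between monocyte groups, edgeR 829, limma 1219 with log2(TPM + 1), 1097 with log2(TPM + 0.1) and 969 without a filter, the fit on 6 libraries 1191, and fits without a library 1205 (without Ly6Chi replicate 2) to 2290. The cause of these moves was not tested. Total-count scaling shifted the median of all genes between the macrophage groups by -0.11 on the log2 scale.

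The labels number replicates 1 to 3 in each group, but the numbers were not shown to pair the libraries. A counter in the sample descriptions runs through replicate 1 of every group before replicate 2 and then 3, and its meaning is not given. Deviations of same-numbered eYFP+ and eYFP- libraries correlated at 0.30, 0.17 and 0.06. For eYFP+ replicates 1 and 2 the best-correlated eYFP- library had the same replicate number, while for eYFP+ replicate 3 it was eYFP- replicate 2. When that number entered the model as a block, 1182 genes passed by DESeq2 between the macrophage groups (505 higher, 677 lower) and 1250 with the GC content and length correction, and 24 by edgeR. With the block and at least 10 counts in 3 libraries DESeq2 called 444 (27 higher, 417 lower). Between the monocyte groups edgeR with the block called 537, with Timd4 at -2.64 and Mrc1 at -1.79 no longer passing, and between eYFP- macrophages and Ly6Clo monocytes it called 3417. The block changed no other call of a member.

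A group size of 3 limits what can be told apart, as the intervals of Timd4, Cd163 and Mrc1 show, and Lyve1 was too rare to compare.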
